A study of Danio rerio with 18 samples.

Results

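Zebrafish that lack both opn4.1 and opn4xb were compared with wild-type fish in the eye, the anterior brain and the posterior brain, and the genes described here are those whose expression shifted in the same direction in all of them, whatever the size of the shift. All 9 opn4 dko libraries and all 9 wild-type (WT) libraries entered a single additive model with the tissue as a covariate, which gives each gene 1 genotype effect. A gene was taken as shared when this effect passed a false discovery rate (FDR) of 0.05 and when its direction was the same in each tissue. There were 195 shared genes among 18630 tested and 31624 in the table, and 84 of them were higher and 111 lower in opn4 dko. Over all tested genes, 0.456% were called higher and 0.596% lower.

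The opn4 dko fish were homozygous for frameshift mutations made with TALENs in opn4.1 and in opn4xb, and WT fish of the same Tübingen strain and the same age, about 1.5 years, were the comparison. All fish had been kept under a blue light-dark regime and were sampled in the light phase. Each of the 6 groups had 3 replicates, and tissue of 3 fish was pooled for every replicate. The labels do not say whether eye and brain libraries with the same number came from the same fish, nor whether mutants and WT were related. The study's methods describe taking the eyes and then the brain from a head and dividing the brain. The tissues of a number may therefore share fish.

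Melanopsin (Opn4) is a light-sensitive G-protein coupled receptor that signals through phospholipase C in photosensitive neurons and, in fish, in many cells of the retina, the pineal and the deep brain. The major histocompatibility complex (MHC) is among the most variable gene families of vertebrates, and its class I molecules display peptides cut by the proteasome to T cells. Most vertebrate tissues hold resident macrophages such as microglia, and their transcripts are read together with those of neurons and glia in a piece of whole tissue. In such bulk samples, fewer cells of a type and less RNA per cell cannot be told apart.

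The targeted genes themselves were not among the shared genes. Levels are given as CPM, counts scaled to a library of 1000000 reads after adjustment of the library sizes by the trimmed mean of M values (TMM), and a log2 fold change is opn4 dko over WT with its standard error. opn4xb was present at 9.43, 8.22 and 9.5 CPM in opn4 dko eyes, against 21.4, 15.4 and 28 CPM in WT eyes. In the brain parts it had at most 15 counts in any library, and over all tissues its log2 fold change was -1.16 ± 0.69 (FDR 0.598). opn4.1 stood at 341, 411 and 515 CPM in opn4 dko eyes, against 351, 600.2 and 402 CPM in WT eyes. In the posterior brain it had 1, 0 and 0 counts in opn4 dko libraries, against 5, 10 and 5 in WT libraries, and in the anterior brain 19, 16 and 19 counts in opn4 dko libraries, against 0, 31 and 7 in WT libraries. Its log2 fold change was -0.14 ± 0.30 over all tissues (FDR 0.924). The eye libraries of the genotypes did not overlap for opn4xb and overlapped for opn4.1, whose posterior brain libraries did not overlap and were lower in opn4 dko. A frameshift leaves most of a transcript in place, so these counts do not check the genotype.

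Library totals lay between 2186877 and 6946549 counts, so that 3 counts are worth 0.432 to 1.37 CPM. Opn4 dko eyes had 3958571 to 5717878 counts and WT eyes, the shallowest group, 2186877 to 3286423. In the third WT eye library, with 2186877 counts, 14577 genes were detected, against 17604 to 20037 in the other libraries. Marker genes fitted the dissection in part: a list of photoreceptor genes summed to 86530 to 111700 CPM in the eyes and to at most 1514 CPM in a brain library, and the midbrain and hindbrain factor EN2 (ENSDARG00000026599) was at 46.9 to 61.4 CPM in the posterior brain and at most 0.278 CPM in the anterior brain. The chosen eye marker crygm2d1 reached at most 0.401 CPM in the eyes. The chosen posterior brain marker pvalb7 was at 373 to 525 CPM there and at 242 to 310 CPM in the anterior brain. Genotypes were balanced within the sequencing lanes named in the deposited commands.

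The additive fit called 196 genes, 1.05% of those tested, and 195 of them moved in the same direction in all 3 tissues, whereas 34% of all tested genes did so at any p-value. The gene without a shared direction, si:ch211-265g22.4, had no count in any eye library. Shared genes that rose had a median log2 fold change of 0.80 and those that fell one of -0.82, and 75 of the 195 changed by at least 1 on the log2 scale. Their median absolute log2 fold change was 0.83 in the eye, 0.85 in the posterior brain and 0.80 in the anterior brain, against 0.36, 0.29 and 0.26 over all tested genes in the same order of tissues, and 191 of the 195 lay more than 1 standard error from 0 in every tissue. These sizes and directions belong to the contrast by which the genes were chosen and carry no test of their own.

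Opn4 dko and WT libraries did not overlap in any of the 3 tissues for 89 of the shared genes (43 higher and 46 lower), where 0.666% of all tested genes had such a pattern. In 82 others they were separate in 2 tissues, as in 4.97% of all tested genes, in 19 in only 1 tissue (28.1%) and in 5 in none (66.2%). When each tissue was read by itself in a fit of all 6 groups, 20 of the shared genes passed the FDR in the eye, 13 in the posterior brain and 29 in the anterior brain, against 0.183%, 0.0966% and 0.623% of all tested genes in the same order. The shared genes were chosen by the same contrast in the same libraries, so that these counts describe them and carry no test either. At the cutoff itself lay ENSDARG00000098380 (FDR 0.0492), RPL37 (ENSDARG00000034291, FDR 0.0493) and setd1a (FDR 0.0499) just inside, and rlbp1a (FDR 0.0507) and CLSTN1 (ENSDARG00000031720, FDR 0.0516) just outside.

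**Figure D1:**
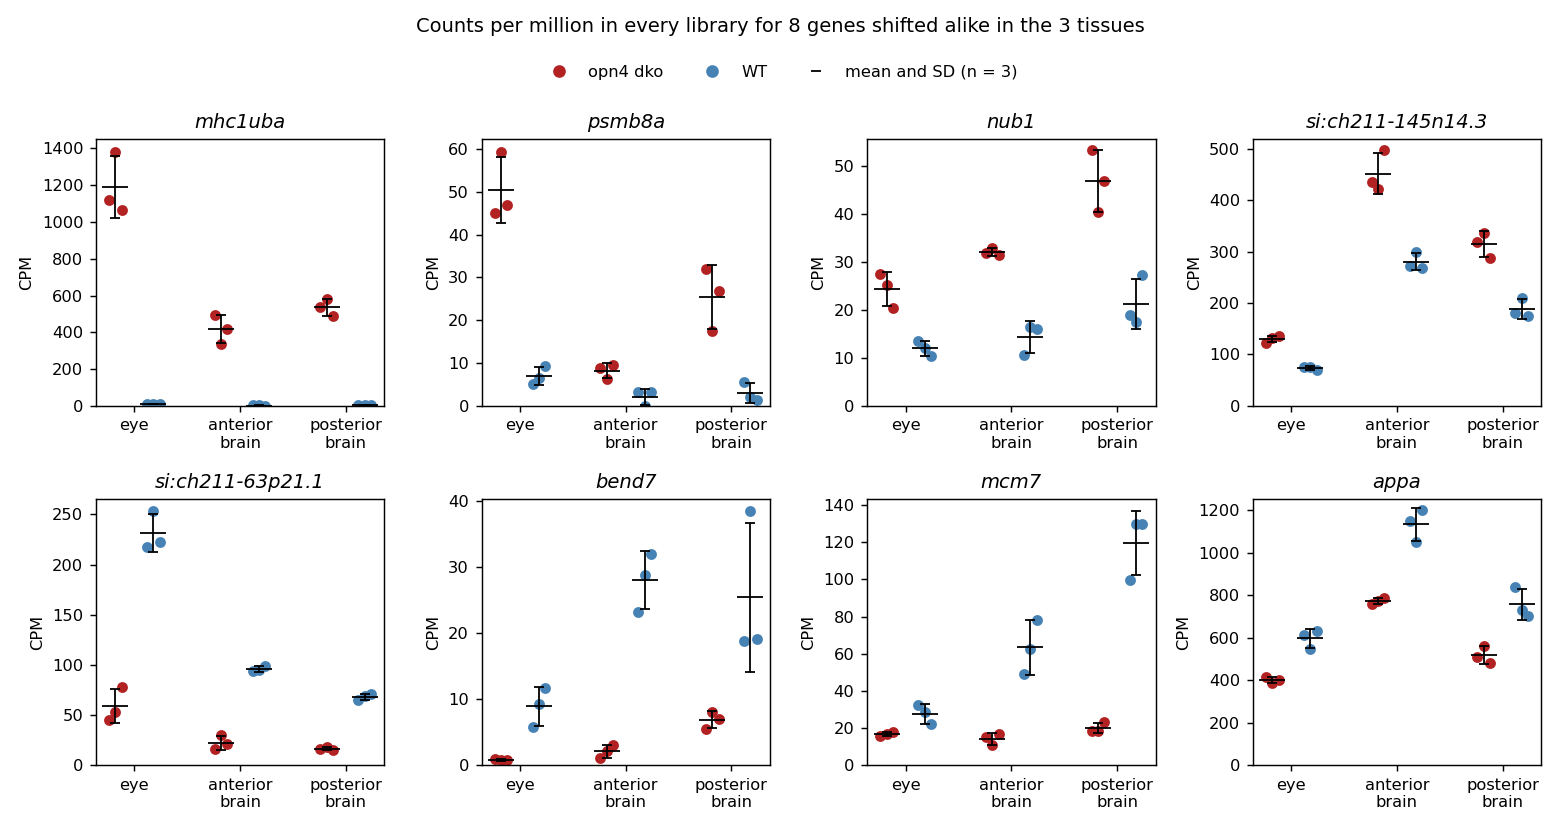
CPM (vertical axis, starting at 0) of 8 shared genes in each library of the eye, the anterior brain and the posterior brain, with opn4 dko in red to the left of WT in blue and black bars for the mean and SD of 3 libraries. In each tissue the opn4 dko points of mhc1uba, psmb8a, nub1 and si:ch211-145n14.3 sit above the WT points, and those of si:ch211-63p21.1, bend7, mcm7 and appa sit below them.

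Only 3 genes, 0.0161% of those tested, passed the FDR within every one of the 3 tissues: mhc1uba and si:ch211-145n14.3, which were higher, and si:ch211-63p21.1, which was lower. mhc1uba encodes an MHC class I chain. It was at 1117, 1381 and 1066 CPM in opn4 dko eyes, against 7.46, 10.3 and 10.3 CPM in WT eyes. In the brain it stood at 492, 339 and 418 CPM in opn4 dko anterior brains, against 1.81, 2.29 and 1.09 CPM in WT anterior brains, and at 537, 579.8 and 489 CPM in opn4 dko posterior brains, against 2.06, 2.6 and 3.37 CPM in WT posterior brains. The lowest opn4 dko library of each tissue was above every WT library of that tissue, and with a log2 fold change of 7.43 ± 0.15 (FDR 8.25e-21) this was the largest rise among the shared genes.

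si:ch211-63p21.1, a gene known only by its clone name, fell by about the same factor everywhere. Its level was 45.6, 53.3 and 78.2 CPM in opn4 dko eyes, against 218, 254 and 223 CPM in WT eyes. It stood at 16.3, 30.2 and 21.5 CPM in opn4 dko anterior brains, against 94.3, 94.6 and 98.9 CPM in WT anterior brains, and at 16.6, 18 and 15.4 CPM in opn4 dko posterior brains, against 64.9, 69.5 and 70.8 CPM in WT posterior brains. The log2 fold change was -1.97 in the eye, -2.04 in the posterior brain and -2.09 in the anterior brain, and -2.03 ± 0.12 in the additive fit (FDR 1.78e-10). si:ch211-145n14.3 rose by less but with a small spread, at 123, 132 and 135 CPM in opn4 dko eyes, against 74.6, 76.4 and 68.7 CPM in WT eyes. Its brain values were 435, 422 and 497 CPM in opn4 dko anterior brains, against 272, 299.6 and 269 CPM in WT anterior brains, and 319, 337 and 287 CPM in opn4 dko posterior brains, against 181, 210.5 and 175 CPM in WT posterior brains, with a log2 fold change of 0.75 ± 0.08 (FDR 3.73e-06). No library of one genotype entered the range of the other for either gene.

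MHC class I and antigen processing genes held 3 of the shared rises and none of the falls. Of 26 tested genes of this list, 23 were not called, the median log2 fold change was 0.43 against 0.04 over all tested genes, and the called genes were mhc1uba, mhc1uka and psmb8a. mhc1uka, another class I chain, was at 46, 26.7 and 39.4 CPM in opn4 dko eyes, against 0.649, 3.43 and 0.982 CPM in WT eyes. Its brain levels were low, at 2.23, 1.97 and 1.54 CPM in opn4 dko anterior brains, against 0 CPM in every WT anterior brain library, with 2.16, 1.35 and 5.01 CPM in opn4 dko posterior brains, against 0.515, 0 and 0.281 CPM in WT posterior brains, and its log2 fold change was 4.33 ± 0.52 (FDR 3e-05). All WT anterior brain libraries had 0 counts of mhc1uka, so that its fold change there depends on the prior count and is given only as at least 3.2-fold higher, against 3 counts in each WT library.

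psmb8a encodes a catalytic subunit of the immunoproteasome, the form of the proteasome that cuts peptides for class I molecules. It was at 45.1, 59.3 and 47 CPM in opn4 dko eyes, against 5.19, 6.51 and 9.33 CPM in WT eyes. Brain values were 8.91, 6.34 and 9.45 CPM in opn4 dko anterior brains, against 3.16, 0 and 3.28 CPM in WT anterior brains, and 32, 17.5 and 26.7 CPM in opn4 dko posterior brains, against 5.66, 2.08 and 1.41 CPM in WT posterior brains. Eyes held the most of it in both genotypes, and the log2 fold change was 2.67 ± 0.37 (FDR 0.000187). MHC class II partners, a list of 7 tested genes, had no call and a median of 0.40. Class I genes are a multigene family whose number and sequence differ between haplotypes, and reads were counted on the genes of 1 reference genome, so that the split of counts between mhc1uba, mhc1uka and related genes is uncertain and a difference in haplotype cannot be told apart from a difference in expression.

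Beyond mhc1uba and psmb8a, 10 further genes made up the 12 largest rises among the fully separated genes with at least 10 counts in every opn4 dko library. prkacbb encodes a catalytic subunit of protein kinase A, the kinase that cyclic AMP activates. It was at 44.9, 58.8 and 76.9 CPM in opn4 dko eyes, against 0.973, 6.17 and 5.89 CPM in WT eyes, and its brain levels were 35.5, 28.9 and 29.9 CPM in opn4 dko anterior brains, against 3.61, 9.33 and 23.2 CPM in WT anterior brains, with 14.2, 18.8 and 19.8 CPM in opn4 dko posterior brains, against 0.257, 6.41 and 9.56 CPM in WT posterior brains. The additive log2 fold change was 2.201 ± 0.433 (FDR 0.00791), and it was 3.82 in the eye alone, above the 1.39 and 1.70 of the anterior and posterior brain, a difference between tissues that did not pass the interaction test (FDR 0.977).

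nfybb, a subunit of the CCAAT-binding factor NF-Y, was at 29.7, 36.1 and 31.3 CPM in opn4 dko eyes, against 12.3, 14.4 and 23.1 CPM in WT eyes. It was at 33.5, 35 and 27.7 CPM in opn4 dko anterior brains, against 15.3, 10.4 and 13.6 CPM in WT anterior brains, and at 32, 48.5 and 42.6 CPM in opn4 dko posterior brains, against 16, 11.3 and 19.7 CPM in WT posterior brains (log2 fold change 1.23 ± 0.18, FDR 0.000324). nub1, whose mammalian product lowers the level of the ubiquitin-like protein NEDD8, was at 27.5, 25.2 and 20.4 CPM in opn4 dko eyes, against 13.6, 12 and 10.3 CPM in WT eyes. It was also at 31.9, 33 and 31.4 CPM in opn4 dko anterior brains, against 10.6, 16.5 and 16 CPM in WT anterior brains, and at 53.5, 40.4 and 47 CPM in opn4 dko posterior brains, against 19, 17.5 and 27.3 CPM in WT posterior brains (log2 fold change 1.11 ± 0.16, FDR 0.000324). For both genes the 3 tissues gave nearly the same fold change, between 0.98 and 1.40 for nfybb and between 1.02 and 1.16 for nub1.

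lxn, which encodes the carboxypeptidase inhibitor latexin, had a log2 fold change of 1.099 ± 0.213 (FDR 0.00697), and MYL9 (ENSDARG00000038123), a regulatory light chain of smooth muscle and non-muscle myosin, one of 1.09 ± 0.23 (FDR 0.0126). erv was at 1576, 392 and 174 CPM in opn4 dko anterior brains, against 116, 69.9 and 121 CPM in WT anterior brains, the widest spread within a group among these genes, and its log2 fold change over all tissues was 1.64 ± 0.34 (FDR 0.012). The remaining rises were in si:dkey-16p6.1 (4.36 ± 0.75), si:ch211-127b6.2 (2.61 ± 0.44), zgc:112332 (1.43 ± 0.26) and si:ch73-288o11.5 (1.40 ± 0.35), which have only clone names. Their FDR lay between 0.002 and 0.0489, and si:dkey-16p6.1, with no count in any WT posterior brain library, was at least 10.7-fold higher there, against 3 counts in each library. The call of si:ch73-288o11.5 was lost in 24 of 34 alternatives, among them 16 of the 18 fits that each left out 1 library (it was kept without the second and without the third WT eye library).

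The 12 largest falls by the same rule were led by acy1, ptk2ba and bend7. acy1 encodes aminoacylase 1, which frees amino acids from their N-acetylated form. It was at 2.81, 2.24 and 0 CPM in opn4 dko eyes, against 34.4, 22.6 and 8.84 CPM in WT eyes. It was found at 1.81, 2.41 and 2.42 CPM in opn4 dko anterior brains, against 20.3, 7.64 and 12.3 CPM in WT anterior brains, and at 1.62, 1.62 and 3.34 CPM in opn4 dko posterior brains, against 22.6, 15.1 and 23.9 CPM in WT posterior brains. Each opn4 dko library was below each WT library of its tissue, with a log2 fold change of -3.14 ± 0.40 (FDR 6.24e-05).

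ptk2ba encodes a tyrosine kinase of the focal adhesion kinase family. It was at 6.82, 2.24 and 4.19 CPM in opn4 dko eyes, against 16.5, 13.7 and 44.7 CPM in WT eyes, and in the anterior brain at 1.11, 0.656 and 3.08 CPM in opn4 dko anterior brains, against 21.2, 27.7 and 21.2 CPM in WT anterior brains. In the posterior brain it was at 5.04, 1.62 and 0.626 CPM in opn4 dko posterior brains, against 13.1, 24.9 and 18.6 CPM in WT posterior brains, and the additive log2 fold change was -3.05 ± 0.39 (FDR 6.24e-05). bend7, named for its BEN domain, was at 1, 0.748 and 0.838 CPM in opn4 dko eyes, against 5.84, 9.25 and 11.8 CPM in WT eyes. It was at 1.11, 2.19 and 3.08 CPM in opn4 dko anterior brains, against 23.2, 28.9 and 32 CPM in WT anterior brains, and at 5.58, 8.08 and 7.1 CPM in opn4 dko posterior brains, against 18.8, 38.5 and 19.1 CPM in WT posterior brains. bend7 fell by 3.74 on the log2 scale in the anterior brain and by 1.89 in the posterior brain, and by 2.89 in the additive fit (FDR 1.83e-05).

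ap4m1, a subunit of the AP-4 adaptor that sorts cargo at the trans-Golgi network, and stxbp3, a Sec1/Munc18 protein that binds syntaxins, act in vesicle traffic. ap4m1 was at 8.43, 4.49 and 9.78 CPM in opn4 dko eyes, against 12.3, 36 and 22.1 CPM in WT eyes. Its brain levels were 11.3, 16.8 and 12.7 CPM in opn4 dko anterior brains, against 41.3, 57 and 49.9 CPM in WT anterior brains, and 7.2, 10.2 and 5.85 CPM in opn4 dko posterior brains, against 23.7, 26 and 16 CPM in WT posterior brains (log2 fold change -1.67 ± 0.22, FDR 0.000114). stxbp3 was at 16.5, 30.4 and 29.1 CPM in opn4 dko eyes, against 42.8, 68.5 and 57.9 CPM in WT eyes, with a log2 fold change of -1.62 ± 0.23 over all tissues (FDR 0.000217). The genotypes were apart in each tissue for both genes.

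Further falls were in mettl1, a tRNA methyltransferase (-1.53 ± 0.25, FDR 0.00156), in alox12, an arachidonate lipoxygenase (-1.45 ± 0.30, FDR 0.0117), and in tmem94 (-1.22 ± 0.16, FDR 9.48e-05). tmem94 was at 22.5, 29.9 and 26.3 CPM in opn4 dko eyes, against 62.3, 75.7 and 110.5 CPM in WT eyes, and the same order held in both brain parts. zgc:171220 (-2.02 ± 0.39) and si:ch211-207c6.6 (-2.03 ± 0.37) completed the falls together with si:ch211-63p21.1 and mcm7. mcm7 encodes a subunit of the MCM helicase that unwinds DNA at replication origins, and was at 15.7, 16.9 and 18.2 CPM in opn4 dko eyes, against 32.4, 28.8 and 22.1 CPM in WT eyes. It was at 15, 10.9 and 17.1 CPM in opn4 dko anterior brains, against 49.2, 62.8 and 78.4 CPM in WT anterior brains, and at 18.4, 18.6 and 23.2 CPM in opn4 dko posterior brains, against 99.8, 129.6 and 129.9 CPM in WT posterior brains.

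**Figure D2:**
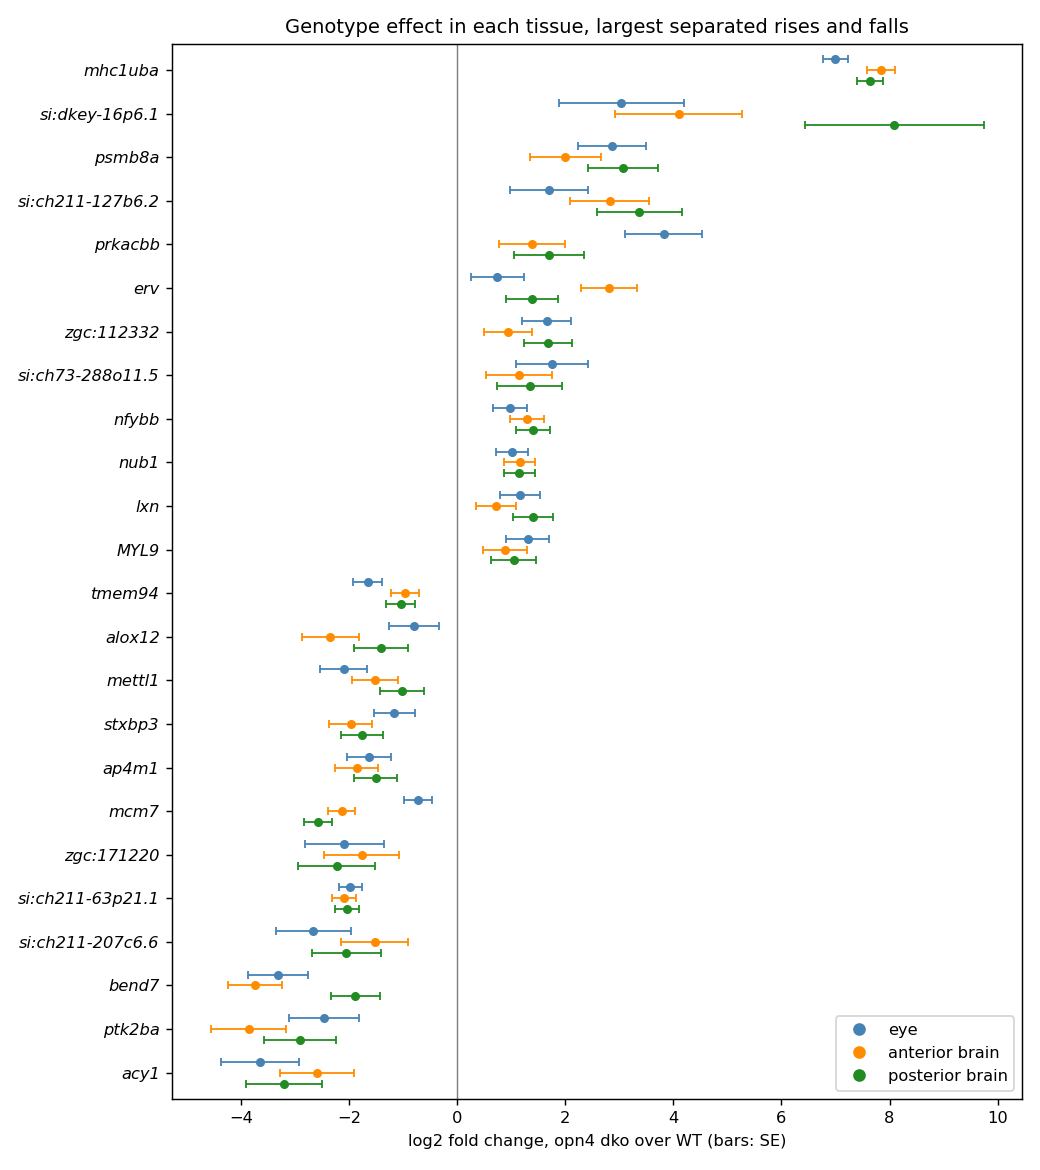
Log2 fold change of opn4 dko over WT (horizontal axis, bars: SE) of the 12 largest rises and 12 largest falls in the eye (blue), the anterior brain (orange) and the posterior brain (green). All 3 estimates of a gene lie on the same side of 0, which the rule requires, and they lie closest together for nub1 (1.02 to 1.16) and si:ch211-63p21.1 (-2.09 to -1.97), whereas mcm7 stood at -0.72 in the eye and at -2.14 and -2.58 in the brain parts. The posterior brain estimate of si:dkey-16p6.1, which had no count in WT there, depends on the prior count.

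mcm7 was the only called gene of a replication licensing list of 26 tested genes, whose median was 0.20, and the other helicase and origin genes of the list were not called. Its log2 fold change was -1.85 ± 0.22 over all tissues (FDR 2.79e-05), and the size differed between tissues (interaction FDR 0.0351). Of 53 genes, 0.284% of those tested, whose genotype effect differed between tissues at an FDR of 0.05, 4 were shared genes: mcm7, ppdpfa, asmt and caspb. For ppdpfa the log2 fold change was 0.15 in the eye, 1.56 in the posterior brain and 3.65 in the anterior brain (interaction FDR 0.000797).

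For asmt and caspb the direction was shared but the size was not. asmt, which encodes the last enzyme of melatonin synthesis, was at 73.8, 84 and 78.8 CPM in opn4 dko eyes, against 70.0, 81.9 and 71.2 CPM in WT eyes. It was at 74.6, 61.5 and 34.7 CPM in opn4 dko anterior brains, against 0.677, 1.07 and 1.31 CPM in WT anterior brains, and at 1.26, 36.3 and 8.77 CPM in opn4 dko posterior brains, against 0.515, 0.173 and 0 CPM in WT posterior brains. The eye libraries overlapped and the brain libraries did not, and beside the additive log2 fold change of 2.95 ± 0.72 (FDR 0.0445) stood one of 0.08 in the eye. The call of asmt was lost in 21 of 34 alternatives, among them the replicate number as a block, lane as a covariate and 11 of the 18 single libraries left out, and its log2 fold change ranged between 1.295 and 5.788 in them. caspb, an inflammatory caspase of fish, was at 18.9, 15.9 and 13.1 CPM in opn4 dko eyes, against 10.4, 11.6 and 17.2 CPM in WT eyes, but at 6.82, 6.12 and 2.2 CPM in opn4 dko anterior brains, against 0.226, 0 and 0 CPM in WT anterior brains, and at 6.84, 12.4 and 12.9 CPM in opn4 dko posterior brains, against 0 CPM in every WT posterior brain library. Against 3 counts in each WT library, caspb was at least 15.1-fold higher in the posterior brain, and its additive call was lost in 17 of 34 alternatives, among them the replicate number as a block and 11 of the 18 single libraries left out.

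Photoreceptor transcripts were also higher in the anterior brain. Of 56 tested genes of a photoreceptor list, rbp3 and pde6ha were called, both higher, and the list's median log2 fold change was 0.53 in the additive fit, but -0.17 in the eye, 0.62 in the posterior brain and 3.29 in the anterior brain. Summed over the list, photoreceptor transcripts made up 967 to 1514 CPM in opn4 dko anterior brains, against 486 to 506 CPM in WT anterior brains, 346 to 626 CPM in opn4 dko posterior brains, against 373 to 397 CPM in WT posterior brains, and 86530 to 108700 CPM in opn4 dko eyes, against 96010 to 111700 CPM in WT eyes. The part of pineal or eye tissue carried with the brain in these values was not tested.

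rbp3, the retinoid-binding protein of the space between photoreceptors and pigment epithelium, was at 4539, 3236 and 3427 CPM in opn4 dko eyes, against 2409, 3226 and 2572 CPM in WT eyes. It was at 85.2, 86.8 and 30.3 CPM in opn4 dko anterior brains, against 2.03, 3.36 and 7.44 CPM in WT anterior brains, and at 0.54, 12.7 and 8.56 CPM in opn4 dko posterior brains, against 3.09, 0 and 2.25 CPM in WT posterior brains. One opn4 dko posterior brain library lay among the WT libraries, and the log2 fold change was 1.87 ± 0.47 (FDR 0.0492). pde6ha, an inhibitory subunit of the cone phosphodiesterase, was at 13101, 10763 and 10659 CPM in opn4 dko eyes, against 8275, 9711 and 8454 CPM in WT eyes, with a log2 fold change of 0.53 ± 0.13 (FDR 0.0441). Neither call held when the libraries were scaled by relative log expression (RLE), the call of rbp3 was lost in 25 of 34 alternatives and that of pde6ha in 20 of 35, and the brain libraries overlapped for pde6ha. The melatonin list had 9 tested genes, 1 of which, asmt, was called, and a median of 0.54. Pigment epithelium genes, 22 tested, were not called, but their sum was 226 to 581 CPM in opn4 dko anterior brains, against 94.6 to 107 CPM in WT anterior brains.

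Genes of microglia and macrophages leaned toward opn4 dko. Of 23 tested genes of a microglia and macrophage list, 21 had a positive log2 fold change, as did 54.5% of all tested genes, and 2 were called, ptprc and lcp1, with a median of 0.73 against 0.04 over all tested genes (3 called and a median of 0.59 without the third WT eye library). ptprc encodes CD45, the tyrosine phosphatase on the surface of all white blood cells. It was at 48.6, 99.2 and 55.9 CPM in opn4 dko eyes, against 68.1, 31.2 and 19.1 CPM in WT eyes. It was at 42, 31.9 and 32.8 CPM in opn4 dko anterior brains, against 13.3, 17.1 and 22.3 CPM in WT anterior brains, and at 58.9, 62.7 and 62.8 CPM in opn4 dko posterior brains, against 26.8, 16.6 and 14.1 CPM in WT posterior brains. The eye libraries overlapped and those of the brain parts did not (log2 fold change 1.15 ± 0.22, FDR 0.00629).

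lcp1, the actin-bundling L-plastin of leukocytes, was at 72.7, 45 and 55.3 CPM in opn4 dko posterior brains, against 37.6, 28.2 and 21.9 CPM in WT posterior brains. In the eye the genotypes overlapped, with 36.7, 48.6 and 34.1 CPM in opn4 dko eyes, against 36.3, 20.2 and 19.1 CPM in WT eyes. Over all tissues its log2 fold change was 0.73 ± 0.17 (FDR 0.0315), and the call was lost in 15 of 35 alternatives. The summed level of the list was 2463 to 4046 CPM in opn4 dko eyes, against 1895 to 2715 CPM in WT eyes, 602 to 664 CPM in opn4 dko anterior brains, against 468 to 678 CPM in WT anterior brains, and 1143 to 1382 CPM in opn4 dko posterior brains, against 765 to 827 CPM in WT posterior brains. Of the defining genes, mpeg1.1 was present at 6.09 to 33.6 CPM in all libraries and P2RY12 (ENSDARG00000069945) at no more than 3.24 CPM. Lymphocyte genes, of which 8 were tested, had no call and a median of 0.30, and blood genes, 7 tested, none and a median of 0.06.

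The interferon and inflammasome list had 3 rises and 1 fall among 31 tested genes, with a median of 0.13. The rises were nub1, caspb and ifi44d, and the fall was jak2a. ifi44d, a relative of the mammalian interferon-induced IFI44, was at 59, 26.7 and 17.8 CPM in opn4 dko anterior brains, against 16, 8.87 and 7.66 CPM in WT anterior brains, and at 115, 54.9 and 84.3 CPM in opn4 dko posterior brains, against 25.2, 17.2 and 14.9 CPM in WT posterior brains, but overlapped between genotypes in the eye (log2 fold change 1.47 ± 0.29, FDR 0.0077). jak2a, a kinase bound to cytokine receptors, was at 59.2, 31.9 and 47.5 CPM in opn4 dko eyes, against 82.7, 88.4 and 59.4 CPM in WT eyes. In the brain it was at 35.9, 28.4 and 24.2 CPM in opn4 dko anterior brains, against 61.8, 83.9 and 56.5 CPM in WT anterior brains, with 42.5, 49 and 42 CPM in opn4 dko posterior brains, against 83.9, 111 and 78.2 CPM in WT posterior brains, and its log2 fold change was -0.99 ± 0.14 (FDR 0.000324). The genotypes were apart in every tissue for jak2a, so the list held changes in both directions.

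Ribosomal protein genes had small positive fold changes. A positive log2 fold change was found for 72 of the 73 tested, against 54.5% of all tested genes, with a median of 0.25, and 5 were called, all higher. rpl27, of the large subunit, was at 473, 509.6 and 379 CPM in opn4 dko eyes, against 250.0, 341 and 231 CPM in WT eyes. It stood at 217, 195 and 160.0 CPM in opn4 dko anterior brains, against 128, 126 and 110.1 CPM in WT anterior brains, and at 383, 319 and 386 CPM in opn4 dko posterior brains, against 302, 253 and 219.9 CPM in WT posterior brains. It was the only one of the 4 with the smallest p-value whose libraries were apart in each tissue (log2 fold change 0.62 ± 0.10, FDR 0.00103), the others being RPL23 (ENSDARG00000053457, 0.50 ± 0.11), rps27a (0.40 ± 0.09) and rps3 (0.37 ± 0.09). Of 35 alternatives, the call was lost in 2 for rpl27, 10 for RPL23, 15 for rps27a, 21 for rps3 and 24 for RPL37, which was also called.

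Under other scalings the median of the list was 0.23 with RLE scaling and 0.25 with upper quartile scaling, with 72 of 73 genes positive under both. With RLE 3 of the genes were called and with the upper quartile 6. By tissue the median was 0.44 in the eye, 0.19 in the posterior brain and 0.13 in the anterior brain. Among the heat shock genes, 24 tested, HSPA8 (ENSDARG00000068992), the constitutive chaperone Hsc70, was called. It was at 1912, 2305 and 1976 CPM in opn4 dko eyes, against 1290.1, 1422 and 1067 CPM in WT eyes. The genotypes were apart in each tissue, with a log2 fold change of 0.53 ± 0.09 (FDR 0.00194).

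Of 24 tested genes of a neuron list, vamp2 and syn2b fell, none rose, and the median was -0.05. vamp2 encodes synaptobrevin, the vesicle SNARE of transmitter release. It was at 111, 88.7 and 121 CPM in opn4 dko eyes, against 153, 149 and 153 CPM in WT eyes. It was at 237, 238 and 239.6 CPM in opn4 dko anterior brains, against 288, 452 and 396 CPM in WT anterior brains, and at 76.3, 97.4 and 65.1 CPM in opn4 dko posterior brains, against 132, 142 and 145 CPM in WT posterior brains (log2 fold change -0.66 ± 0.10, FDR 0.000596). syn2b, a synapsin that tethers synaptic vesicles, was at 219.9, 169 and 196 CPM in opn4 dko eyes, against 255, 260.0 and 233 CPM in WT eyes. It was also at 427, 461 and 489.9 CPM in opn4 dko anterior brains, against 603, 690.1 and 685 CPM in WT anterior brains, and at 235, 204 and 241 CPM in opn4 dko posterior brains, against 329, 346 and 304 CPM in WT posterior brains (log2 fold change -0.47 ± 0.08, FDR 0.00127). Both fell in each tissue without overlap, and the other 22 genes of the list were not called.

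Of 16 tested cyclin-dependent kinase genes outside the mitotic ones, cdk9 and cdk5 fell and none rose. cdk9, the kinase of P-TEFb that releases paused RNA polymerase II, was at 24.1, 16.2 and 21.5 CPM in opn4 dko anterior brains, against 63.2, 61.1 and 75.3 CPM in WT anterior brains, and at 30.1, 24.8 and 28 CPM in opn4 dko posterior brains, against 55.8, 62.9 and 74.8 CPM in WT posterior brains. Its eye libraries overlapped, and the log2 fold change was -1.16 ± 0.18 (FDR 0.000644). cdk5, a kinase of postmitotic neurons, was at 5.58, 11.8 and 8.35 CPM in opn4 dko posterior brains, against 22.4, 30.1 and 23.3 CPM in WT posterior brains. Its eye libraries overlapped as well, with 14.8, 19.7 and 28.2 CPM in opn4 dko eyes, against 45.7, 69.9 and 24.5 CPM in WT eyes and a log2 fold change of -1.13 ± 0.21 (FDR 0.00433).

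A single clock gene was called out of 41 tested: CRY1 (ENSDARG00000011583), a cryptochrome that represses CLOCK and BMAL. It was at 25.1, 48.1 and 41.1 CPM in opn4 dko eyes, against 63.9, 77.8 and 83.5 CPM in WT eyes. In the anterior brain 1 opn4 dko library lay within the WT range, at 23.8, 45.7 and 18.7 CPM in opn4 dko anterior brains, against 61.6, 40.2 and 48.6 CPM in WT anterior brains, and the posterior brain was at 26.5, 48.7 and 48.9 CPM in opn4 dko posterior brains, against 50.4, 65.8 and 72.3 CPM in WT posterior brains. The log2 fold change was -0.78 ± 0.18 (FDR 0.027), while the median of the list was -0.09. The call of CRY1 was lost in 15 of 35 alternatives, among them each tissue left out and each replicate number left out. It was kept in 10 of the 18 fits that each left out 1 library. The immediate early list had 29 tested genes and 1 call, dusp7, a phosphatase of MAP kinases (-0.54 ± 0.11, FDR 0.0119).

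Ubiquitin ligases of the TRIM family gave 1 call in each direction out of 30 tested. trim3b, a brain-enriched member in mammals, was at 142, 128 and 150.1 CPM in opn4 dko eyes, against 158, 183 and 262 CPM in WT eyes. It was lower in both brain parts as well, with 99.7, 108 and 80.0 CPM in opn4 dko anterior brains, against 153, 172 and 168 CPM in WT anterior brains and a log2 fold change of -0.63 ± 0.10 (FDR 0.00103). trim37 was at 137, 119.5 and 104 CPM in opn4 dko posterior brains, against 34.5, 81.9 and 54.5 CPM in WT posterior brains, but overlapped in the eye, with 54.6, 44.1 and 28.2 CPM in opn4 dko eyes, against 13.3, 37.3 and 1.47 CPM in WT eyes. Its log2 fold change was 1.05 ± 0.25 (FDR 0.0353), and the call was lost in 18 of 34 alternatives. vim, the intermediate filament of radial glia and many other cells, was the only called gene of 18 in the radial glia list (0.64 ± 0.11, FDR 0.00354). No gene passed the FDR in the lists for cell cycle (21 tested), lens (24), muscle (15), oligodendrocytes (14), anterior brain (21) or posterior brain (30) markers.

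**Figure D3:**
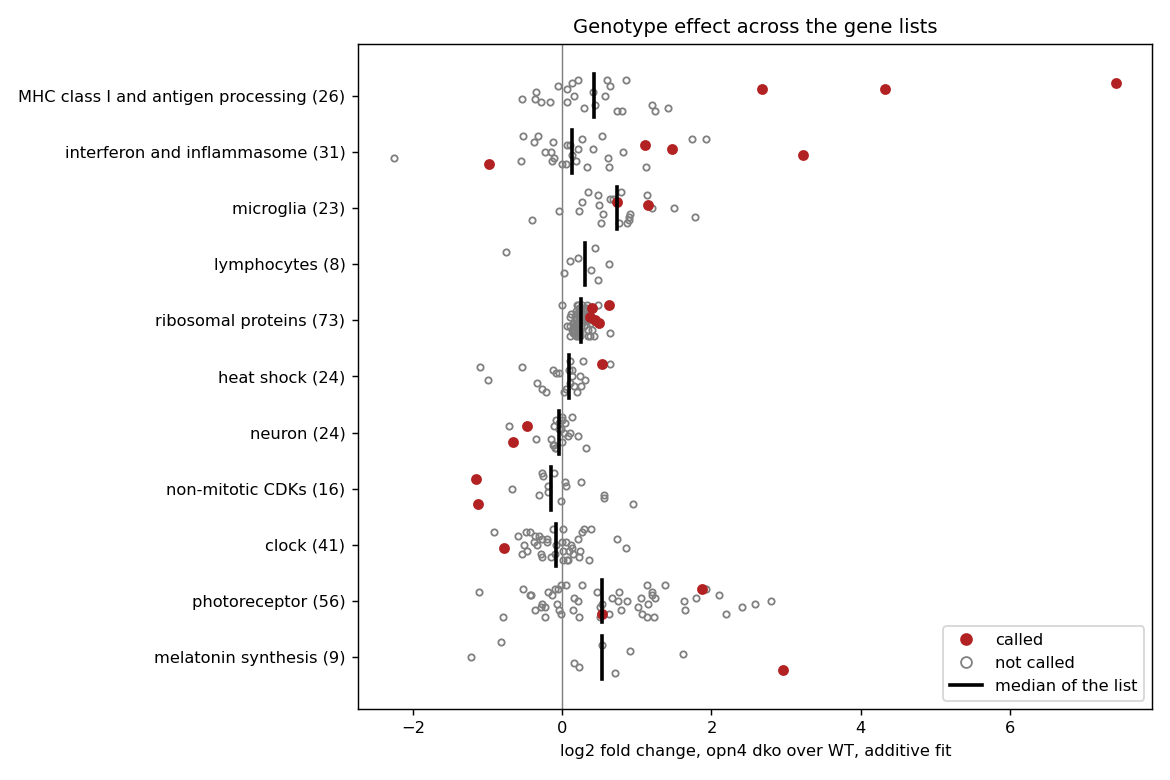
Additive log2 fold change of opn4 dko over WT (horizontal axis) for every tested gene of 11 lists, with called genes filled in red, other genes as open circles, list medians as black bars and the number tested in brackets. Ribosomal protein genes cluster narrowly around their median of 0.25, the microglia list is centred at 0.73, and mhc1uba, mhc1uka and psmb8a stand far from the rest of the MHC class I and antigen processing list.

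Some shared genes were close to absent in one genotype, so that a fitted fold change is not meaningful and only a lower bound against 3 counts in each library is given. There were 10 of these, 4 with at most 3 counts in every WT library and 6 with at most 3 in every opn4 dko library, out of 11 called genes of this kind (0.059% of those tested). tnfb, which encodes a tumour necrosis factor, had at most 3 counts in each WT library and 4 to 44 in each opn4 dko library, and was at least 4.45-fold higher in the eye, 1.95-fold in the posterior brain and 5.66-fold in the anterior brain. dicp3.3, of a family of immunoglobulin-type receptors of fish, had 1 count in all WT libraries together and up to 43 in an opn4 dko library. It was at least 8.75-fold higher in the posterior brain, 2.57-fold in the eye and 1.89-fold in the anterior brain. prf1.6, a perforin gene, had 1 count in all WT libraries together and up to 26 in opn4 dko. Its bounds were 4.71-fold in the eye, 1.75-fold in the anterior brain and 0.63-fold in the posterior brain, where opn4 dko libraries had 0, 5 and 0 counts.

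On the other side, si:dkeyp-1h4.8 had 1 count in all opn4 dko libraries together and up to 428 in a WT library, and was at least 170-fold lower in opn4 dko eyes. Its WT libraries held only 1, 4 and 9 counts in the anterior brain and 0, 4 and 0 in the posterior brain. The bounds there were 1.62-fold and 0.351-fold, so that its brain direction rests on few counts. si:dkeyp-86b9.5 and ENSDARG00000098976 had no count in any opn4 dko library and up to 39 and 36 in a WT library. These genes passed the filter on low counts only through the genotype in which they were present. Several belong to families with near-identical copies, whose reads cannot always be assigned to 1 copy, so that these counts are uncertain.

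A part of the shared genes lay next to each other in the genome. Gene order was read from RefSeq on the assembly GRCz12tu, which differs from the build of the counts (GRCz10), and it placed 142 of the 195 shared genes and 12896 of the 18630 tested genes. Of the placed shared genes, 45 (31.7%) had another shared gene within 5 positions, whereas 4.64% of all placed tested genes had one. They formed 27 neighbouring pairs, and in all 27 both genes moved in the same direction, 12 pairs higher and 15 lower. Pairs of a run have genes in common, so that the 27 are not separate observations. The share of all neighbouring tested genes that moved in the same direction was not computed.

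The longest run held 6 genes, all higher in opn4 dko: flot1a, znf384a, daxx, mhc1uka, mhc1uba and psmb8a, which are 6 of the 9 tested genes in a stretch of 10. flot1a encodes a flotillin of membrane microdomains, and was at 142, 159 and 144 CPM in opn4 dko anterior brains, against 85.1, 72.6 and 84.1 CPM in WT anterior brains (log2 fold change 0.83 ± 0.13, FDR 0.00109). znf384a, a zinc finger factor, was at 58.5, 82.1 and 54.1 CPM in opn4 dko posterior brains, against 36, 31.5 and 21.6 CPM in WT posterior brains (log2 fold change 0.93 ± 0.15, FDR 0.00103). daxx, a chaperone of histone H3.3, was at 23.3, 22.4 and 23.8 CPM in opn4 dko eyes, against 8.76, 6.85 and 0 CPM in WT eyes, and at 28.3, 18.6 and 25.9 CPM in opn4 dko anterior brains, against 7, 12.7 and 7.44 CPM in WT anterior brains. In the posterior brain the genotypes overlapped, with 11.5, 18 and 21.3 CPM in opn4 dko posterior brains, against 7.72, 12.3 and 11.8 CPM in WT posterior brains, and the log2 fold change of 1.37 ± 0.33 (FDR 0.0416) lost its call in 21 of 34 alternatives. The other 18 tested genes within 15 positions of mhc1uba had a median log2 fold change of 0.52 and were not called as shared.

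tmem88a, vamp2, ap4m1 and rnasekb formed a run of 4 falls, with log2 fold changes of -0.53 ± 0.12, -0.66 ± 0.10, -1.67 ± 0.22 and -0.69 ± 0.11, among 8 tested genes in a stretch of 11. IFT46 (ENSDARG00000011240), VPS11 (ENSDARG00000036338) and HYOU1 (ENSDARG00000013670) were 3 adjacent rises (0.77 ± 0.18, 0.67 ± 0.15 and 0.78 ± 0.18), with HSPA8 7 positions from VPS11. They are known for cilium assembly, vesicle fusion at the lysosome and protein folding in the endoplasmic reticulum. nars1, txnl1 and rab27b fell together (-0.71 ± 0.11, -0.64 ± 0.15 and -1.79 ± 0.27), and ndrg2, zgc:55733 and si:ch211-63p21.1 were 3 falls among 3 tested genes in a stretch of 4 (-0.99 ± 0.13, -0.67 ± 0.12 and -2.03 ± 0.12).

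rab27b, a small GTPase of secretory vesicles, was at 22.7, 54 and 37.8 CPM in opn4 dko anterior brains, against 103, 112 and 144 CPM in WT anterior brains. ndrg2, of the N-myc downstream regulated family and abundant in astroglia, was at 64.1, 88 and 71.4 CPM in opn4 dko posterior brains, against 171, 196 and 165 CPM in WT posterior brains. In the eye 1 WT library of ndrg2, at 122 CPM, lay within the opn4 dko range. The remaining runs were 13 pairs, of which 5 were rises and 8 falls. Among them were gfm1 and lxn, INTS4 (ENSDARG00000102953) and rps3, rtn4a and rps27a, sec61g and zgc:112332 and ifi44d and palm2akap2 as rises, and jak2a and plgrkt, cdk5 and atg9b, stxbp3 and rabggta, sec24a and camlg, CEP131 (ENSDARG00000088984) and nploc4, dusp7 and mettl1, reep2 and kdm2ab and farp1 and ggact.3 as falls. Several pairs and runs rest on a call that was not stable. In 18 fits that each left out 1 library, farp1 was called in 3, nploc4 in 4, camlg, rps3 and daxx in 5 and atg9b in 6. txnl1 was called in 7, tmem88a in 8, rps27a in 10, CEP131 and IFT46 in 11, VPS11 in 12 and HYOU1 in 15. The remaining genes of the runs and pairs were called in all 18.

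None of the runs included a targeted gene. No placed shared gene lay within 20 positions of opn4.1 or opn4xb, where 28 and 18 placed genes were tested. The nearest placed ones on the same chromosome were mettl17, 87 positions from opn4.1, and tcnbb, 463 positions from opn4xb. Only the 142 placed genes of the 195 shared ones could be searched, so that an unplaced one may lie nearer. Whether the neighbouring genes lie on stretches of the genome that differ between the mutant and the WT fish was not tested, and a line difference that goes with the genotype cannot be told apart from an effect of the mutations in these libraries.

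**Figure D4:**
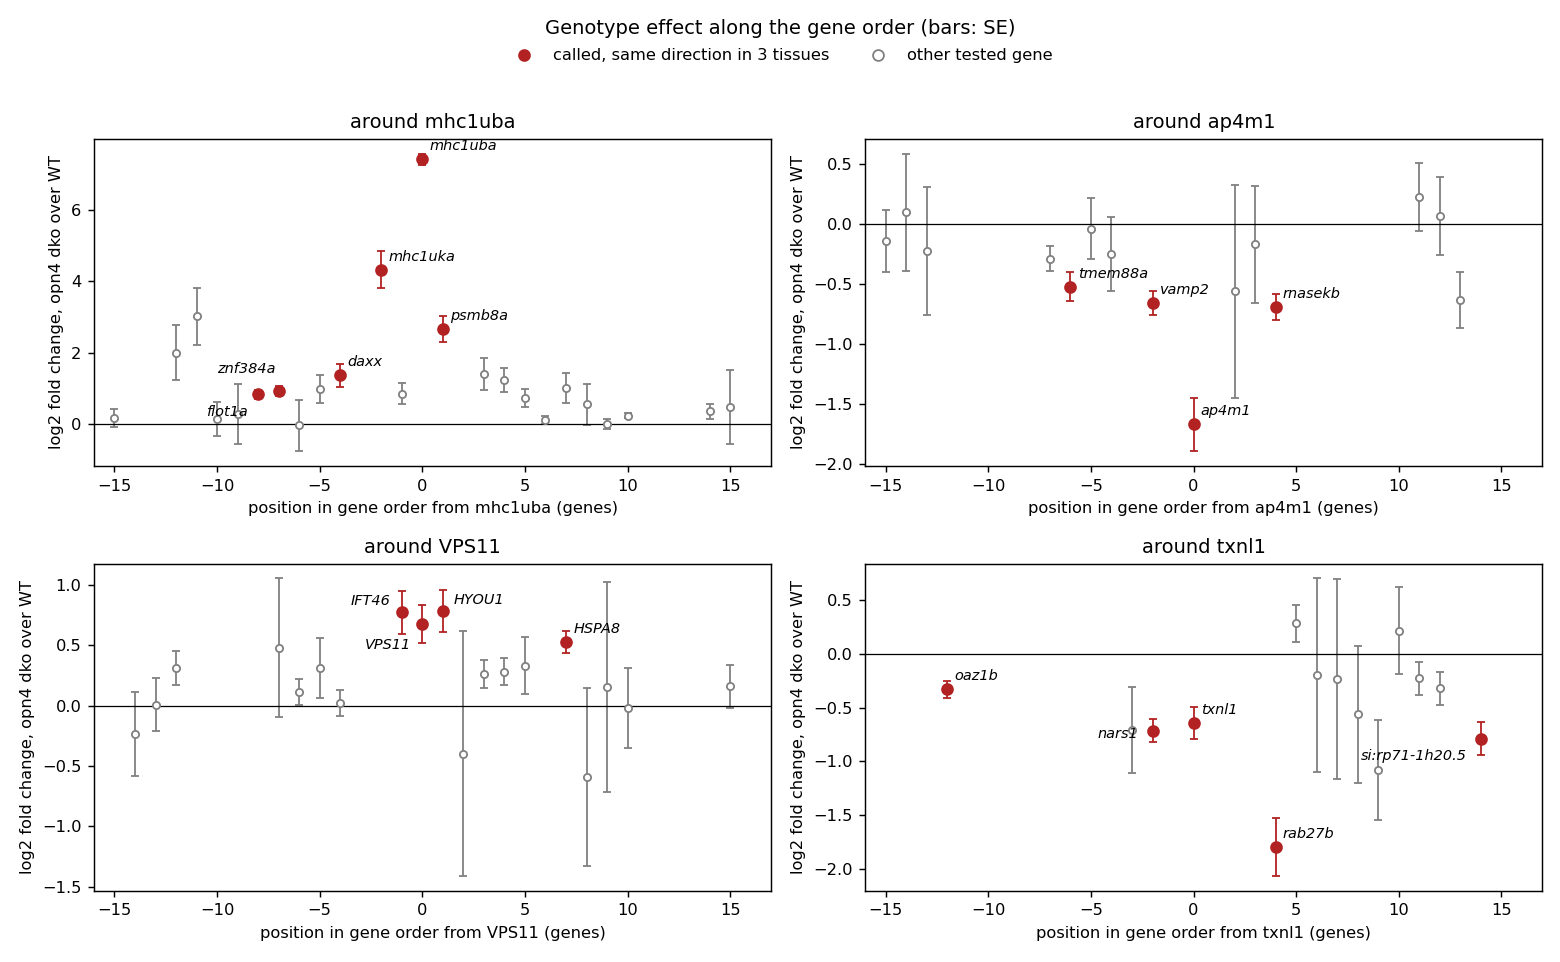
Additive log2 fold change of opn4 dko over WT (vertical axis, bars: SE) of the tested genes around 4 runs of shared genes, by position in the gene order of GRCz12tu (horizontal axis, in genes). The red points, which are shared genes, lie above 0 around mhc1uba and VPS11 and below 0 around ap4m1 and txnl1, with the other tested genes as open circles.

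A check of the shared direction that does not use the tissue in question came from leaving each tissue out. The model was fitted to 2 tissues, the genes it called were looked up in the third, and the third was tested on its own 6 libraries. With the anterior brain left out, 30 genes were called, 26 of them were tested in the anterior brain, all 26 had the same direction there and 25 (96.2%) reached an unadjusted p below 0.05 in that direction, against 7.19% of all 15013 genes tested in both. With the posterior brain left out, 28 were called, and 25 of the 25 tested had the same direction, with 23 (92%) at an unadjusted p below 0.05, against 7.89% of all 15108.

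The 2 brain parts by themselves called 388 genes, of which 352 were tested in the eye. There 285 (81%) had the same direction, against 57.9% of all 14436 genes tested in both, and 98 (27.8%) reached an unadjusted p below 0.05 in the same direction, against 3.2%. The opposite direction at that p was found for 4 genes, and 2 of the 352 passed the FDR in the eye with the same direction. The labels do not say whether the 3 tissues of a number share fish, in which case the tissue left out is not independent of the others. The median log2 fold change in the brain parts was 0.80 in absolute value, and in the eye, read in the direction of the brain, it was 0.40. The lists differ in length and in median size (1.02 with the anterior brain and 1.33 with the posterior brain left out), so that their shares are not compared.

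**Figure D5:**
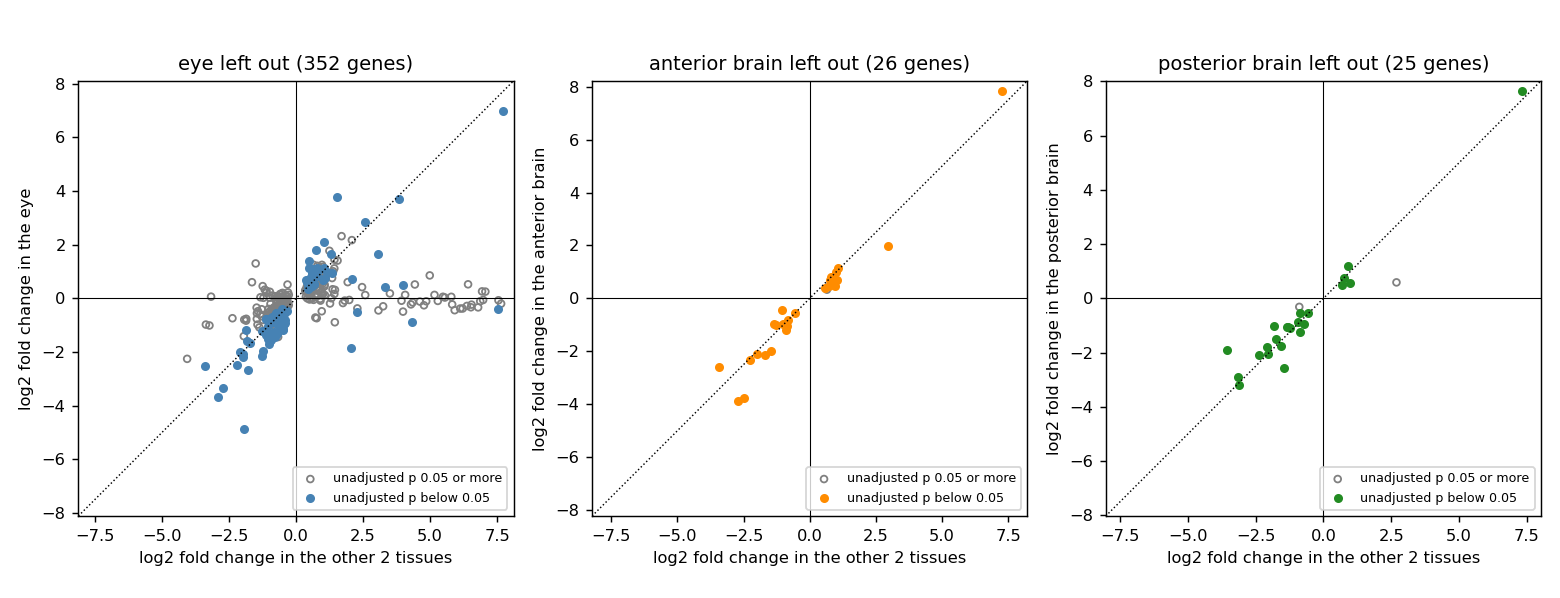
Log2 fold change of opn4 dko over WT in 2 tissues (horizontal axis) and in the tissue left out of the fit (vertical axis) for the genes called in the 2 tissues, with filled points for an unadjusted p below 0.05 in the tissue left out and the dotted line for equal values. Genes called with the anterior brain (26) or the posterior brain (25) left out lie near the line. Among the 352 genes called in the single fit of the 2 brain parts together, a group with large rises in the brain lies near 0 in the eye.

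Further shared genes of known function are given here by name after their values were seen. appa, an orthologue of the amyloid precursor protein gene, was at 417, 389 and 404 CPM in opn4 dko eyes, against 616, 547 and 631 CPM in WT eyes. It was at 757, 772 and 788 CPM in opn4 dko anterior brains, against 1151, 1051 and 1204 CPM in WT anterior brains, and at 511, 563 and 482 CPM in opn4 dko posterior brains, against 841, 730.2 and 703 CPM in WT posterior brains, with no overlap in any tissue (log2 fold change -0.56 ± 0.07, FDR 3.15e-05). Genes for the iron-storing ferritin heavy chain were higher, with log2 fold changes of 0.91 ± 0.16 for fthl27 and 0.47 ± 0.08 for fth1a, as were SOD1 (ENSDARG00000043848, superoxide dismutase, 0.67 ± 0.13) and pink1, a kinase of mitochondrial quality control (0.72 ± 0.14). NEFL (ENSDARG00000012426), a neurofilament subunit, rose as well (0.95 ± 0.19).

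Genes of vesicle traffic and of the synapse changed in both directions. Falls included pacsin1a (-0.73 ± 0.13), NAPA (ENSDARG00000067605, -0.73 ± 0.18), reep2 (-0.76 ± 0.13) and the sodium channel gene scn1lab (-0.46 ± 0.10), and rises STX12 (ENSDARG00000044605, 0.49 ± 0.12), TMED2 (ENSDARG00000026908, 0.37 ± 0.09) and CAMK2N2 (ENSDARG00000025855, 0.33 ± 0.07). Among genes tied to the lysosome, falls were found for hexa, a subunit of hexosaminidase (-1.07 ± 0.21), ctsc, cathepsin C (-1.02 ± 0.23), and aga, aspartylglucosaminidase (-1.29 ± 0.32), and a rise for atp6v0ca, a subunit of the proton pump (0.46 ± 0.08). Cilium genes moved in both directions, with falls of rpgrb (-0.78 ± 0.16), tmem107 (-0.84 ± 0.13) and CEP131 (-0.76 ± 0.18) and a rise of IFT46 (0.77 ± 0.18). The splicing factors srsf2a (-0.36 ± 0.08) and SRSF6 (ENSDARG00000013729, -0.40 ± 0.08) and the nuclear RNA malat1 (-0.30 ± 0.07) fell by little, and h3f3b.1, a histone H3.3 gene, was lower by more (-0.80 ± 0.11). In 18 fits that each left out 1 library, TMED2 was called in 3, STX12 and aga in 4 and NAPA in 5. srsf2a was called in 9, ctsc in 10, scn1lab, CEP131 and IFT46 in 11, malat1 in 12 and CAMK2N2 in 14. The remaining genes of this paragraph were called in all 18.

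How many genes are called depends on what counts as a replicate. The additive fit takes the 18 libraries as independent, and if eye and brain parts of the same number came from the same fish there are only 3 replicates of each genotype. When the tissue-centred log2 CPM of the 3 tissues were averaged for each number, and the 3 opn4 dko averages were compared with the 3 WT averages by limma, only 3 of the 195 shared genes, mhc1uba (FDR 3.08e-05), caspb (FDR 0.0338) and mhc1uka (FDR 0.0369), passed the FDR over all genes. Another limma fit (voom) kept the 18 libraries and took the tissues of a number as 1 block, with an estimated correlation of 0.0263 within blocks. It called 349 genes with a shared direction, and 180 of the 195 were among them. These fits differ in their test as well as in what they take as a replicate. Without the third WT eye library, the least deeply sequenced, 298 genes were called, 294 of them with a shared direction, and these included 193 of the 195. In 18 fits that each left out 1 library, 115 of the 195 were called with the same direction every time.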

How the data were processed

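Poly(A) RNA of zebrafish eyes, anterior brains and posterior brains was sequenced as single reads. The deposited values are raw counts per Ensembl gene, which the authors made by mapping to GRCz10 and counting reads of mapping quality 20 or more with featureCounts, by strand and over whole gene bodies. Their commands name HISAT and the study's methods NextGenMap as the mapper, and reads were not mapped again. The submitters' processing notes name edgeR 3.9.

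Libraries were grouped by the labels. In R 4.3.3 the additive model of tissue and genotype was fitted with edgeR 4.0.16 (filterByExpr with a minimum count of 10 in a library and 15 in total, TMM, quasi-likelihood F-test, prior count 0.125, Benjamini-Hochberg FDR of 0.05). Directions and interaction came from a fit of the 6 groups. The authors tested tissues one by one, and the additive model replaces that here. Standard errors are the absolute log2 fold change over the square root of F. P-values of the additive fit measure the spread between libraries, which it takes as independent. They do not measure the spread between pools of fish if the tissues of a number share fish. The procedure was tested on simulated counts in which all libraries were independent, so that this test does not address fish shared between tissues.

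The members and gene lists were chosen with earlier results of these data known. Named genes were the targeted genes, members past the FDR in each tissue, the 12 largest rises and 12 largest falls among members with a symbol, at least 10 counts in every library of the higher genotype and no overlap in any tissue, up to 4 called genes of each list by p-value, members within 5 genes of another, 3 genes on either side of the cutoff, and called genes whose direction was not shared. Some named genes and markers are not reported here. Symbols came from the study's tables and a table of Ensembl identifiers.

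Alternatives were RLE and upper quartile scaling, each filter (none, and 10 counts or more in all libraries), DESeq2 1.42.0, the likelihood ratio test, the robust fit, the replicate number as a block, limma 3.58.1 (voom with the pool number as a block, and the average of the 3 tissues with a prior count of 2), a stricter FDR of 0.01, a minimum of 1 for the absolute log2 fold change, each tissue left out, each library left out, and each replicate number left out. Lane as a covariate was added after seeing the data. Sequences were not used here.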

Additional observations from a re-analysis of the deposited data

Results flagged for a closer look

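Genotype effects that differed between tissues were found by the interaction test in the fit of all 18 libraries for 5 of the genes named above. Groups of 3 are too small to single out a library by the values of 1 gene. The third WT eye library nevertheless stood apart in depth and in the number of genes detected. It had 0 counts of daxx and 3 of trim37, and these enter the WT eye values given above. For ppdpfa the interaction FDR was 0.000797, with log2 fold changes of 0.15 in the eye, 1.56 in the posterior brain and 3.65 in the anterior brain. For asmt it was 0.00401, with 0.08 in the eye, 5.88 in the posterior brain and 5.76 in the anterior brain. WT libraries held only 2, 1 and 0 counts of asmt in the posterior brain and 3, 7 and 6 in the anterior brain. The sizes of these brain effects are therefore uncertain. caspb had an interaction FDR of 0.00505 and a log2 fold change of 0.30 in the eye. It had no count in any WT posterior brain library, where it was at least 15.1-fold higher in opn4 dko against 3 counts in each library, and 1 count in all WT anterior brain libraries together, so that the fitted brain effects depend on the prior count. rlbp1a, a retinoid-binding protein gene just outside the cutoff, had an interaction FDR of 0.0285, with 0.54 in the eye, 4.88 in the posterior brain and 3.82 in the anterior brain. Its posterior brain libraries had no count in WT and only 1, 6 and 4 counts in opn4 dko, so that the 4.88 depends on the prior count. WT anterior brain libraries held 3, 1 and 3 counts of rlbp1a, against 62, 31 and 22 in opn4 dko, and the size of that rise is uncertain too. For mcm7 the interaction FDR was 0.0351, and the fall was 0.72 on the log2 scale in the eye, 2.58 in the posterior brain and 2.14 in the anterior brain. For ppdpfa, asmt and rlbp1a the eye had the smallest estimate and the brain parts the larger ones, as for mcm7 in the other direction. Of the 53 genes with such a difference, 45 had their smallest absolute effect in the eye. The part of tissue carried with the brain in these differences was not tested.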

How the results depend on the processing

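The additive fit called 196 genes, 195 with a shared direction, and 53 genes differed between tissues. Both counts of called genes stayed within 1.5 times under RLE and upper quartile scaling, both filters, the robust fit and lane as a covariate (209 genes, an alternative chosen after seeing the data). They moved to 445 and 427 with DESeq2, to 491 and 457 with the likelihood ratio test, to 385 and 349 with voom and the pool number as a block (482 called by voom without it), to 4 and 3 with the 3 tissues averaged, to 96 and 96 at an FDR of 0.01, and to 76 and 75 with a minimum of 1 for the absolute log2 fold change. Without the eye they were 388 and 388, without the anterior brain 30 and 30, and without the posterior brain 28 and 27. Each library, or all libraries of a replicate number, left out gave 44 to 298 called genes, 43 to 294 of them with a shared direction, the lowest without replicate 2 and the highest without the third WT eye library. The share of rises among the called genes was 43.4%, and 52.3% with the likelihood ratio test, 51.1% without a filter and 25% without the posterior brain.

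Genes that differed between tissues numbered 127 with DESeq2, 115 without a filter, 1 with at least 10 counts in every library, 24 at an FDR of 0.01, and 24 to 72 with each library left out (24 without the third WT anterior brain library and 72 without the first WT eye library).

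With the replicate number as a block, 206 genes were called, 203 with a shared direction, 172 of them among the 195, and 47 differed between tissues. Correlations between libraries refer to deviations from the mean of each library's own group, not to expression levels. Same-numbered libraries of different genotypes had correlations of -0.0153 to 0.0413 in a tissue, and those with different numbers -0.066 to 0.0328. In the posterior brain the same-numbered ones (0.00931 to 0.0259) lay above the others (-0.0255 to 0.00157), while in the eye and the anterior brain the ranges overlapped. Values this small cannot decide whether the numbers pair the genotypes. Same-numbered libraries of the tissues of a genotype had correlations of 0.000322 to 0.122, with 1 of 18 over 0.1, while those with different numbers lay between -0.0756 and 0.0343. In opn4 dko the same-numbered ones lay above the others for every pair of tissues, as for anterior and posterior brain (0.0522 to 0.0756, against -0.0491 to -0.00837). In WT they did so for eye and posterior brain (0.0312 to 0.0814, against -0.0592 to 0.00765). For WT eye and anterior brain, and for the WT brain parts, the ranges overlapped. Whether this comes from shared fish was not tested.

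The 86 named genes gave 2982 values under the alternatives, of which 2288 kept direction and side of the cutoff, 661 lost the call, 30 gained one and 3 reversed. The reversals were all in opn4.1, which was never called, at 0.0688 without the posterior brain and between -0.38 and 0.32 with libraries left out.

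Limits are the 3 pools of each genotype and tissue, the unknown sharing of fish between tissues, the single mutant line, and the depth, at which 3 counts are up to 1.37 CPM, so that rises and falls of low genes are bounds.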
